A study of Homo sapiens with 8 samples.

Results

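The KRAB zinc finger genes of the chromosome 7q11 cluster were followed with XBP1 knockdown in 2 breast cancer cell lines held in hypoxia without glucose. The cluster was taken as 7 listed genes, ZNF92, ZNF107, ZNF117, ZNF138, ZNF273, ZNF680 and ZNF736, and every probe set annotated to 1 of them alone was used. This gave 18 probe sets of 41091 with a single gene symbol, and 7 of 19775 genes. A further 3 probe sets carry the symbol ZNF273 together with other genes and were not counted as members. The genes were chosen on results of these same arrays, and which measured values were used is not stated. All comparisons below are therefore treated as used, and the members' levels, differences and numbers of calls are a description with no p-value. Per-array values are log2 RMA levels, in which a step of 1 is a 2-fold change in signal.

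T47D cells are luminal and express the oestrogen receptor, while MDA-MB-231 cells are triple-negative with mesenchymal features. Each line had been transduced by lentivirus with either shCtrl, the control hairpin, or shXBP1, which targets XBP1, and was kept under puromycin. All 4 groups were held for 24 h at 0.1% O2 in glucose-free DMEM with fetal bovine serum, so no group here lacks the combined stress. Each group has 2 arrays, named biological replicates in the labels. The sources do not say if these were separate cultures. The p-values hence reflect only how far these samples spread, and that spread may be technical. The hairpin sequences are not given in the sources used here, and in each comparison the whole effect of shXBP1 infection against shCtrl infection was measured.

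The lines and the knockdown matched their labels. XBP1, the transcription factor of the unfolded protein response, fell in T47D from 12.41 and 12.56 to 7.52 and 7.16, a log2 difference of -5.15 (limma SE 0.18, adjusted p = 1.07e-05). In MDA-MB-231 it fell from 10.83 and 10.69 to 7.13 and 6.69, a difference of -3.85 (limma SE 0.18, adjusted p = 4.48e-05). All 10 luminal markers were lower in MDA-MB-231 shCtrl than in T47D shCtrl and all 10 mesenchymal-like markers were higher, each past the limma threshold of an adjusted p of 0.05. The mean of the 4 measured leukocyte markers lay between 4.76 and 5.16 on the 8 arrays, under the median probe set level of 6.34. The mean of 5 fibroblast markers lay between 5.82 and 6.06, and of these COL1A1 rose in T47D (0.70, limma adjusted p = 0.0248). COL1A1 stood above the median level in every group. Its means with shCtrl and shXBP1 were 9.12 and 9.82 in T47D and 9.97 and 9.95 in MDA-MB-231. DCN stood close to the median level, at 6.40 and 6.41 in T47D and 6.44 and 6.24 in MDA-MB-231. Replicate arrays correlated at 0.994 to 0.997 across probe sets. Precision is limited by having 2 arrays a group, and the SE of a knockdown difference had a median of 0.13.

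KRAB zinc finger proteins form a large family of transcriptional repressors. Their tandem C2H2 fingers read DNA, and their KRAB domain recruits TRIM28, which brings in the histone methyltransferase SETDB1, HP1 proteins and deacetylases to silence the bound site. Many of them bind transposable elements. The genes arose by tandem duplication and sit in clusters, so neighbours are close in sequence. Whether each of the 7 proteins carries a KRAB domain was not examined here. ZNF117 lies beside ERV3-1, an endogenous retroviral envelope gene, and RefSeq annotates read-through transcripts that join them.

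Upstream sequences are printed for the 7 of the 9 RefSeq starts of these genes that align with each other at length. The start of ZNF117 itself and the first start of ZNF273 (start a) do not and are left out. Each stretch is the 150 bases before a RefSeq transcription start on GRCh38.p14, 5′ to 3′ on the strand of the gene, with CCAAT boxes in capitals.
ZNF736: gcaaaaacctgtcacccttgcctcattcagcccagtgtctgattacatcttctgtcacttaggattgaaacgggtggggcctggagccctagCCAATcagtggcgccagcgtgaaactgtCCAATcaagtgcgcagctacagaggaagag
ZNF680: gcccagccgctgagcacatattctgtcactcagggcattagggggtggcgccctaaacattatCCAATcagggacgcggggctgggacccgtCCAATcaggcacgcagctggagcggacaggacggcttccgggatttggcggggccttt
ZNF107: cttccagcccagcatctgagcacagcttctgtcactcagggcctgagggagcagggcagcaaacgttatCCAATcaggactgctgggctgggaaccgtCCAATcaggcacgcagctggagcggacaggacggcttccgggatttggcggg
ZNF138: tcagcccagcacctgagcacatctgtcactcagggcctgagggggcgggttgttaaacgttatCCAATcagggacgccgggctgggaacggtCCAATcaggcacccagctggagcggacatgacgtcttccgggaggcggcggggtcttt
ZNF273 start b: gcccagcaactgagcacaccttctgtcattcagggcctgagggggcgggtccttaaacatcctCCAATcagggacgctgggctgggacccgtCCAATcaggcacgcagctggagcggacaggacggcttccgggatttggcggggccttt
ERV3-1-ZNF117: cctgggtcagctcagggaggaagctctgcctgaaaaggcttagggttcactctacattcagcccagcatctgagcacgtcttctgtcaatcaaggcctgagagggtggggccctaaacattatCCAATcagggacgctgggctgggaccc
ZNF92: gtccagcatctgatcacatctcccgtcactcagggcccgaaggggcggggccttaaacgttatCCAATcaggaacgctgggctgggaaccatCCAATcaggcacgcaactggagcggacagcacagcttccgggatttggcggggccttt
The ZNF736 stretch lies at chr7:64313811-64313960 and the ZNF107 stretch at chr7:64665983-64666132, both on the plus strand. That of ZNF680 lies at chr7:64563072-64563221 on the minus strand, that of ZNF138 at chr7:64794278-64794427 on the plus strand, and that of the second ZNF273 start (start b) at chr7:64903123-64903272 on the plus strand. The ERV3-1-ZNF117 read-through start has chr7:65006747-65006896 on the minus strand, and ZNF92 has chr7:65373705-65373854 on the plus strand.

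Over 250 upstream bases, the starts of ZNF680, ZNF107, ZNF138, ZNF92 and ZNF273 (start b) were 81.7% to 87.4% identical in their 10 pairwise local alignments, which spanned 245 to 255 aligned columns. ZNF736 was 66.7% to 69.5% identical to these 5 over 226 to 235 columns. The read-through start of ERV3-1-ZNF117 was 78.9% to 81.1% identical to them over 182 to 189 columns. The start of ZNF117 itself and the first start of ZNF273 (start a) aligned with these 5 over at most 13 columns. The aligned starts thus include those of 6 of the 7 genes, and for ZNF117 the read-through start in place of its own.

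**Figure D1:**
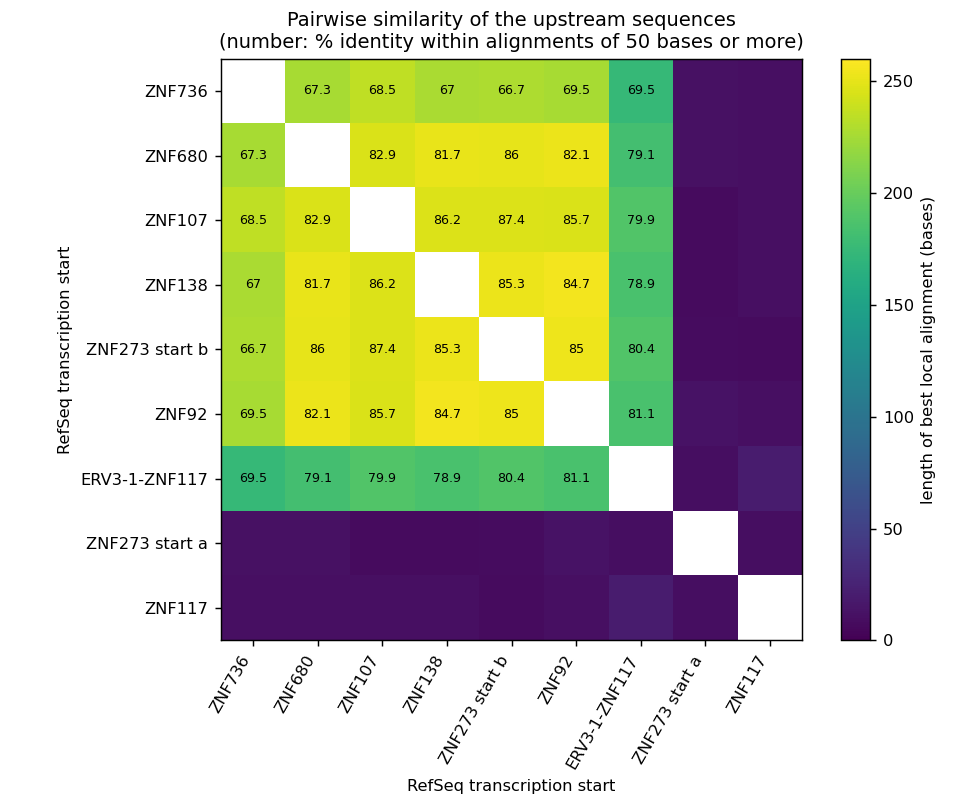
Pairwise local alignment of the 250 bases before each RefSeq start of the 7q11 genes. Colour gives the length of the alignment in bases and the printed number the percent identity within alignments of at least 50 bases; ZNF680, ZNF107, ZNF138, ZNF273 start b and ZNF92 form a block of 81.7% to 87.4% identity, while ZNF117 and ZNF273 start a align with none of them beyond 13 bases.

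The CCAAT box, searched on both strands, was present in the 250 upstream bases of 8 of the 9 RefSeq starts of these genes and at least 2 times in 6 of them. Over all 35116 promoters with this window, 32% held it and 9.53% held it at least 2 times. In ZNF680, ZNF138, ZNF92 and ZNF273 start b the boxes began 58 and 87 bases before the start, in ZNF107 52 and 81 bases, and in ZNF736 30 and 58 bases. The octamer ATGCAAAT, chosen after the sequences were seen, was present in 5 starts (ZNF680, ZNF107, ZNF138, ZNF92 and ZNF273 start b) and in 1.63% of all promoters, at 236 to 243 bases before the start and so outside the printed stretches. The letters GGCGGGGCC were in 3 windows (ZNF680, ZNF273 start b and ZNF92) and in 8.1% of all promoters. They stand in the printed stretches of these starts, so this count is no independent result. Motifs bound by XBP1 and its relatives were searched as well. The letters TGACGTGG were in 0 of the 9 windows and in 0.612% of all promoters. The shorter ACGTG, which TGACGTGG contains, was in 1 window (ERV3-1-ZNF117) against 18.5% of all promoters. The letters CCACG were in 2 windows (both ZNF273 starts) against 33.5%, and read on the opposite strand they too lie within TGACGTGG. These are matches of letters only, in the windows named. As the aligned starts resemble each other, a motif in one is likely in the others. Their counts are thus not independent, and the shares of all promoters are given for scale only.

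In T47D, shXBP1 arrays read higher than shCtrl arrays for the brightest probe set of all 7 genes, by 0.61 to 2.71 on the log2 scale. ZNF680 had the largest difference. In MDA-MB-231 the differences of the same probe sets lay between -0.55 and 0.36. Of the 7, 6 were called higher in T47D and 0 lower by limma, and in MDA-MB-231 0 were called higher and 2 lower. Over the brightest probe sets of all genes, 14.5% were called higher and 12.3% lower in T47D, and 9.59% higher and 5.98% lower in MDA-MB-231. At an unadjusted p under 0.05, the 7 held 7 higher and 0 lower in T47D, and 0 higher and 3 lower in MDA-MB-231. At the same unadjusted p, 19% of all genes were higher and 17.4% lower in T47D, and 16.5% higher and 11.6% lower in MDA-MB-231. These shares are given for scale only. In bulk RNA, fewer cells expressing a gene and less RNA per cell cannot be told apart.

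**Figure D2:**
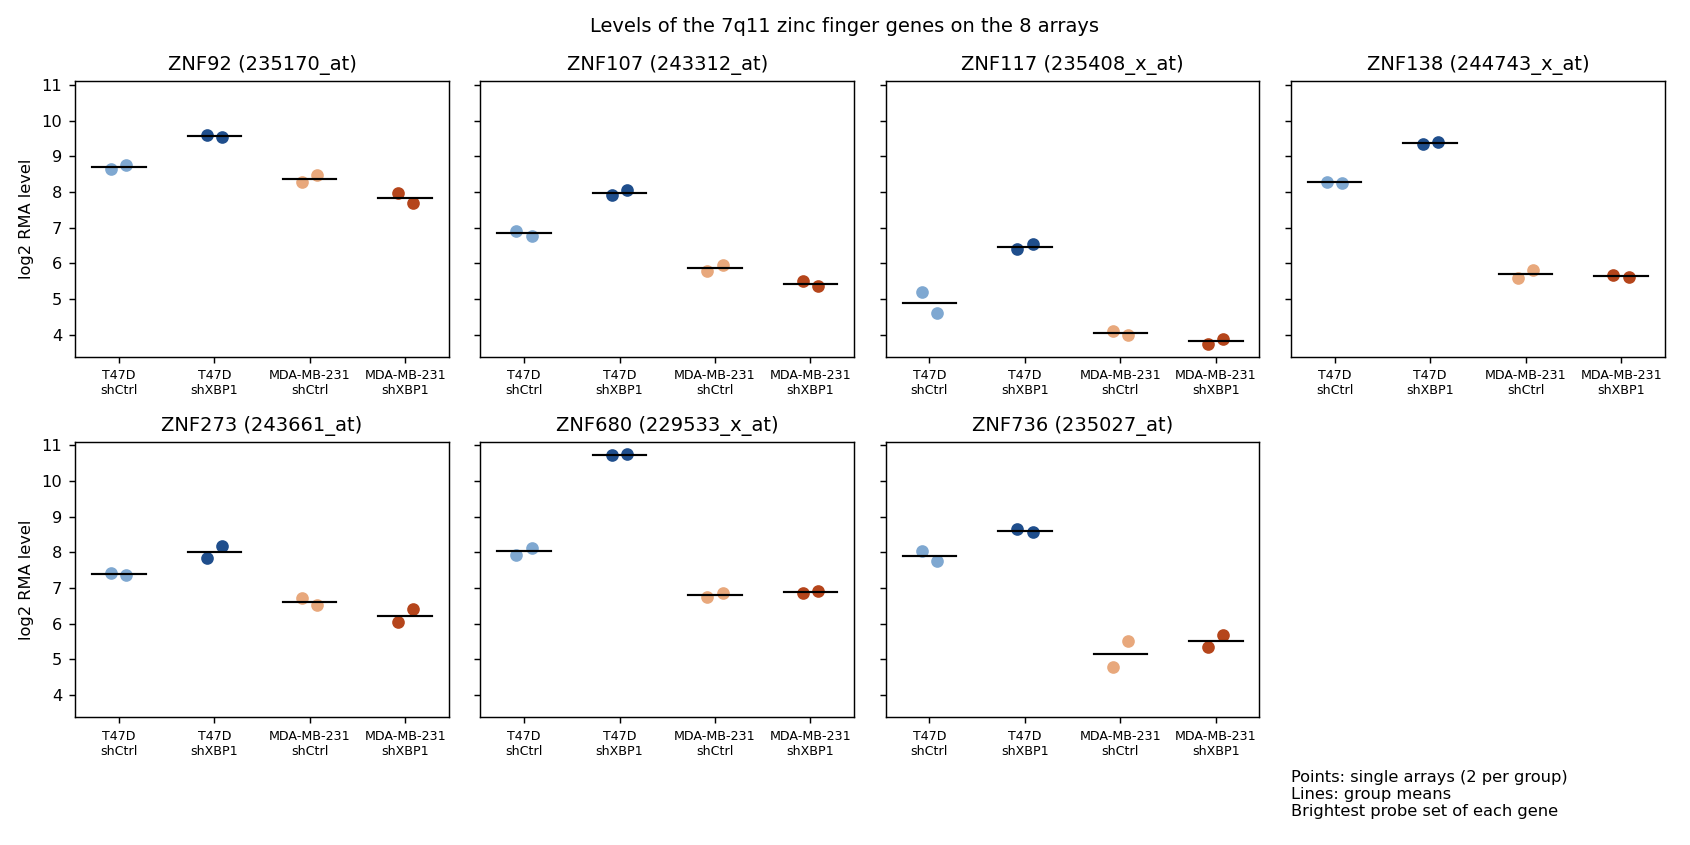
Log2 RMA level of the brightest probe set of each 7q11 gene on each array (points, 2 per group) with group means (lines). The 2 T47D shXBP1 arrays sit above the 2 T47D shCtrl arrays for every gene, and the MDA-MB-231 arrays sit below all T47D arrays.

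ZNF680 read 7.94 and 8.13 on the T47D shCtrl arrays and 10.72 and 10.76 on the T47D shXBP1 arrays. The MDA-MB-231 arrays read 6.75 and 6.86 with shCtrl and 6.87 and 6.93 with shXBP1. The T47D shXBP1 arrays stood above all the others, and the MDA-MB-231 groups all but met. The difference was 2.71 (SE 0.11) in T47D, or 6.54-fold, and 0.09 (SE 0.11) in MDA-MB-231. ZNF680 has 1 probe set here, 229533_x_at, whose suffix marks probes that may also match other transcripts.

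ZNF117 read 5.18 and 4.61 in T47D shCtrl and 6.40 and 6.53 in T47D shXBP1, then 4.10 and 3.98 in MDA-MB-231 shCtrl and 3.73 and 3.89 in MDA-MB-231 shXBP1. The 4 groups did not overlap. The T47D difference was 1.57 (SE 0.18), or 2.96-fold, and that of MDA-MB-231 was -0.23 (SE 0.18). This is a dim probe set, at or under 6.34 on 6 of 8 arrays. The other 3 ZNF117 probe sets were below 6.34 on all 8 arrays and had T47D differences of 0.47 to 0.60 with no call, and MDA-MB-231 differences between -0.49 and 0.14. In T47D, 207117_at gained a call without shCtrl replicate 1 (0.66) and 235564_at without shXBP1 replicate 1 (0.83). With single arrays left out the T47D differences ran from 0.30 to 0.91 at 207605_x_at, from 0.31 to 0.83 at 235564_at and from 0.28 to 0.66 at 207117_at.

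ZNF107 read 6.92 and 6.76 in T47D shCtrl and 7.90 and 8.06 in T47D shXBP1 at its brightest probe set, 243312_at. The MDA-MB-231 values were 5.78 and 5.95 with shCtrl and 5.49 and 5.37 with shXBP1. The groups were again ordered T47D shXBP1, T47D shCtrl, MDA-MB-231 shCtrl and MDA-MB-231 shXBP1, with no overlap. The differences were 1.14 (SE 0.12) in T47D, or 2.21-fold, and -0.43 (SE 0.12) in MDA-MB-231, and both were called. The MDA-MB-231 call was lost without any single array of the 8, with differences of -0.51 to -0.35.

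The probe sets of ZNF107 disagreed in MDA-MB-231. The probe set 205739_x_at read 5.71 and 6.10 in T47D shCtrl and 7.56 and 7.42 in T47D shXBP1, a difference of 1.59 (SE 0.21) that was called higher. In MDA-MB-231 it read 4.57 and 4.64 with shCtrl but 4.81 and 5.47 with shXBP1, a difference of 0.53 (SE 0.21) against -0.43 at 243312_at. The MDA-MB-231 shXBP1 arrays thus lay above shCtrl at 205739_x_at and below at 243312_at, and only 243312_at was called. Without MDA-MB-231 shXBP1 replicate 1, 205739_x_at was called higher there (0.86). The mean over the ZNF107 probe sets gave 0.11 in MDA-MB-231. The third, 1560854_s_at, had differences of 0.00 in T47D and 0.22 in MDA-MB-231 with no call, and was below 6.34 on all 8 arrays. Its MDA-MB-231 shXBP1 arrays also lay above shCtrl, so 243312_at was the only ZNF107 probe set where they lay below.

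ZNF138 read 8.27 and 8.26 in T47D shCtrl and 9.35 and 9.40 in T47D shXBP1. MDA-MB-231 arrays gave 5.58 and 5.82 with shCtrl and 5.67 and 5.62 with shXBP1. The T47D groups stood apart and the MDA-MB-231 groups overlapped. The differences were 1.11 (SE 0.11) in T47D, or 2.15-fold, and -0.05 (SE 0.11) in MDA-MB-231. Its other probe set was dim on all 8 arrays and showed -0.12 in T47D and -0.10 in MDA-MB-231, with no call.

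ZNF92 read 8.65 and 8.75 in T47D shCtrl and 9.60 and 9.55 in T47D shXBP1. In MDA-MB-231 the direction turned, from 8.28 and 8.47 with shCtrl to 7.96 and 7.69 with shXBP1. No groups overlapped. The differences were 0.87 (SE 0.12), or 1.83-fold, in T47D and -0.55 (SE 0.12), or 1.46-fold lower, in MDA-MB-231, and both were called. The MDA-MB-231 call was lost without shCtrl replicate 2 (-0.45) or shXBP1 replicate 2 (-0.41) of that line. The other 2 ZNF92 probe sets were dim on all arrays and had differences of 0.17 and 0.21 in T47D.

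ZNF273 read 7.44 and 7.38 in T47D shCtrl and 7.85 and 8.19 in T47D shXBP1 at 243661_at. In MDA-MB-231 it read 6.73 and 6.51 with shCtrl and 6.04 and 6.40 with shXBP1. As for ZNF92, the shXBP1 arrays lay above in T47D and below in MDA-MB-231. The differences were 0.61 (SE 0.16) and -0.40 (SE 0.16), and only that of T47D was called. This T47D call was lost without shCtrl replicate 1 (0.64), shCtrl replicate 2 (0.58) or shXBP1 replicate 2 (0.44) of T47D. The second probe set, 215239_x_at, was called higher in T47D (1.04, SE 0.17) and had -0.45 (SE 0.17) in MDA-MB-231, where it gained a call without shXBP1 replicate 1 (-0.71).

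ZNF736 was the gene whose brightest probe set, 235027_at, was not called in T47D. It read 8.05 and 7.76 in T47D shCtrl and 8.65 and 8.56 in T47D shXBP1, a difference of 0.70 (SE 0.23). In MDA-MB-231 it read 4.79 and 5.51 with shCtrl and 5.35 and 5.68 with shXBP1, a difference of 0.36 (SE 0.23) between groups that overlapped. Its probe set 1569637_at went the other way in T47D, from 7.81 and 8.16 to 7.58 and 7.04, a difference of -0.67 (SE 0.21) that was called lower. In MDA-MB-231 that probe set read 5.31 and 5.31 with shCtrl and 5.30 and 5.70 with shXBP1, a difference of 0.19. The T47D call of 1569637_at was lost without any of the shCtrl arrays (-0.84 and -0.50 without T47D replicates 1 and 2, -0.67 without either MDA-MB-231 replicate) and without T47D shXBP1 replicate 2 (-0.40). The brightest probe set gained a T47D call without either MDA-MB-231 shCtrl replicate (0.70), and a call of higher in MDA-MB-231 without shCtrl replicate 2 of that line (0.73). The third ZNF736 probe set was dim and had differences of -0.24 and -0.06 with no call. The mean over the ZNF736 probe sets gave -0.07 in T47D.

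**Figure D3:**
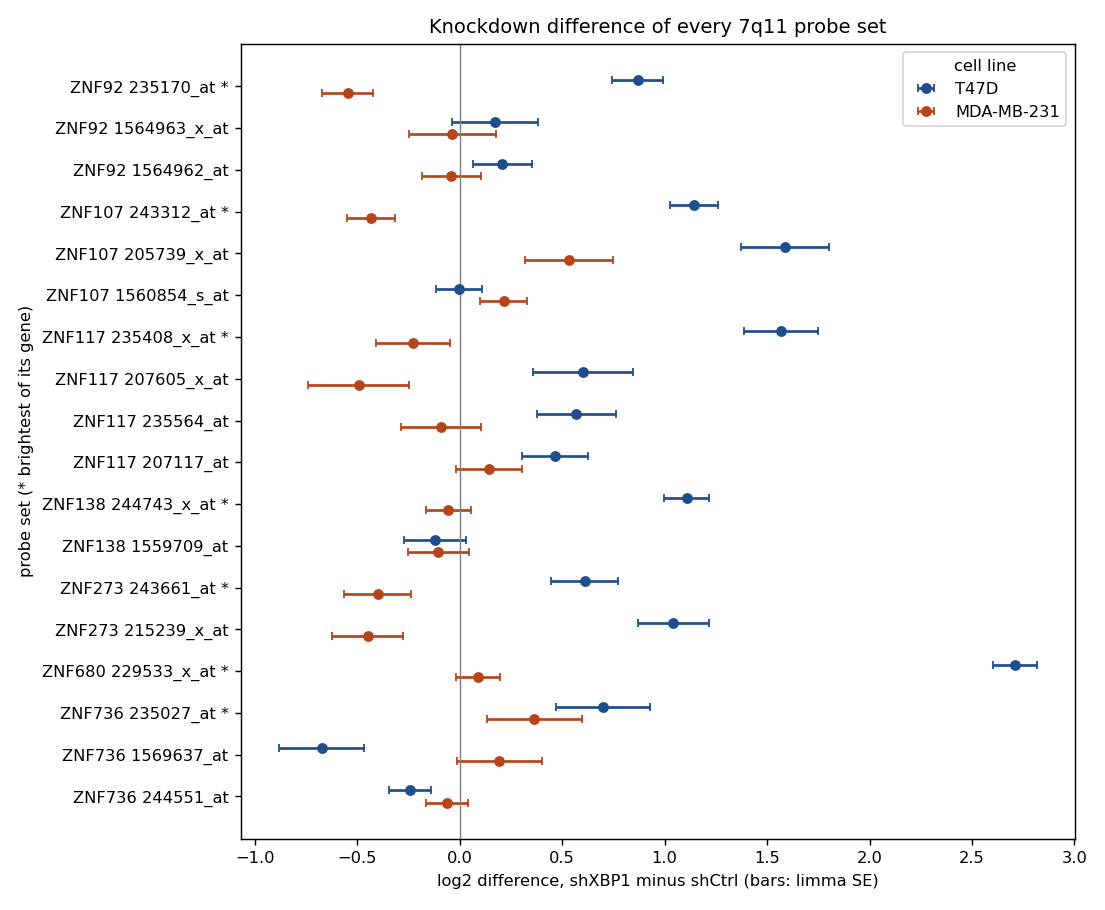
Log2 difference shXBP1 minus shCtrl for each of the 18 probe sets in T47D and MDA-MB-231, with limma SE as bars. In T47D 14 of 18 points lie above 0 and in MDA-MB-231 6 of 18 do; the T47D points reach 2.71 and those of MDA-MB-231 stay between -0.55 and 0.53.

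Counted over all 18 probe sets, T47D had 8 called higher, 1 lower and 9 not called, with a median difference of 0.61. Over all probe sets 13.2% were called higher and 11% lower, and the median was -0.01. The shXBP1 arrays lay wholly above shCtrl for 12 of the 18 and wholly below for 2, where all probe sets gave 30.3% and 31.1%. In MDA-MB-231 0 were called higher, 2 lower and 16 not, against 7.8% and 8.03% over all probe sets, with a median of -0.06. At an unadjusted p under 0.05 limma held 1 higher and 4 lower of the 18, against 13.9% and 14.4% of all probe sets. The shXBP1 arrays lay above for 3 and below for 6, where all probe sets gave 27% and 26.3%. A sign of RNA quality, the gap between the 3′ and 5′ ACTB probe sets, moved with the MDA-MB-231 comparison: it averaged 1.26 on shCtrl and 0.999 on shXBP1 arrays, which did not overlap. In T47D it was 0.971 to 1.03 and 0.973 to 1.26, which overlap. The same gap for GAPDH averaged 0.302 and 0.312 in MDA-MB-231 and 0.283 and 0.220 in T47D. The part of RNA quality in the zinc finger levels was not tested.

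Among the 7 probe sets with the suffix _x_at, 5 were called higher in T47D. Among the 11 without it, 3 were higher (ZNF92, ZNF107 and ZNF273 at 1 probe set each) and 1 lower. Genes of such clusters can be near-identical in places, and whether probes of 1 gene read signal of another was not tested, so the values of ZNF680, ZNF117 and ZNF138, whose called probe sets all end in _x_at, are uncertain in their gene. Of the 18, 11 had a mean below the median probe set level, and 3 of these were called higher in T47D against 5 of the 7 brighter ones.

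The knockdown difference of MDA-MB-231 minus that of T47D was negative for the brightest probe set of all 7 genes, with a median of -1.42. It was -2.62 (SE 0.15) for ZNF680, -1.79 (SE 0.25) for ZNF117, -1.57 (SE 0.17) for ZNF107, -1.42 (SE 0.18) for ZNF92, -1.16 (SE 0.16) for ZNF138 and -1.01 (SE 0.23) for ZNF273, all of which limma called. ZNF736 had -0.34 (SE 0.33) and was not called. Over the 18 probe sets 8 were called lower and 0 higher, where all probe sets gave 11.5% and 9.67%, and 10 and 1 had an unadjusted p under 0.05, against 17.1% and 15.8% of all probe sets. The ZNF273 call was lost without any of T47D shCtrl replicate 2 (-0.98), T47D shXBP1 replicate 2 (-0.84), MDA-MB-231 shCtrl replicate 1 (-0.90) or MDA-MB-231 shXBP1 replicate 1 (-0.83). That of 205739_x_at for ZNF107 (-1.05) was lost in 6 of the 8 omissions, with -1.12 to -0.72, and it held without T47D shCtrl replicate 2 or MDA-MB-231 shXBP1 replicate 2.

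Between the control groups, the cluster was lower in MDA-MB-231 than in T47D. ZNF736 differed most, at -2.75 (SE 0.23) or 6.75-fold, and its 1569637_at probe set gave -2.68 (SE 0.21). ZNF138 followed at -2.57 (SE 0.11) or 5.94-fold. ZNF680 differed by -1.23 (SE 0.11), ZNF107 by -0.97 (SE 0.12), ZNF117 by -0.86 (SE 0.18) and ZNF273 by -0.79 (SE 0.16), and these were called as well. ZNF92 had -0.33 (SE 0.12) with no call, although its arrays did not overlap. Of the 18 probe sets 10 were called lower and 0 higher, where all probe sets gave 21.6% and 22.8%, with 11 lower and 0 higher at an unadjusted p under 0.05 in limma, against 24.2% and 26% of all probe sets. The MDA-MB-231 arrays lay wholly below for 12 and above for 2, where all probe sets gave 32.4% and 36.5%. This comparison shares its T47D shCtrl and MDA-MB-231 shCtrl arrays with the knockdown comparisons, and the difference between the lines uses all 8 arrays. The ACTB gap between 3′ and 5′ probe sets moved with this comparison too, averaging 1.002 on T47D shCtrl and 1.26 on MDA-MB-231 shCtrl arrays with no overlap, and its part in the levels was not tested.

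Genes next to the cluster moved in both directions. RefSeq lists 23 other protein-coding genes between the outermost members and among the 10 nearest on each side, of which 9 have a single-symbol probe set. None of the 10 on the ZNF736 side is among these 9. In T47D 3 rose, 3 fell and 3 did not pass, with a median of 0.05, where 14.5% and 12.3% of all genes rose and fell. VKORC1L1, a vitamin K epoxide reductase gene that follows ZNF92, rose by 0.51 (SE 0.13, limma adjusted p = 0.0226). GUSB, the lysosomal beta-glucuronidase gene next to it, fell by 0.51 (SE 0.11, limma adjusted p = 0.00951). ERV3-1, which lies between ZNF117 and ZNF92, had -0.23 (SE 0.13, limma adjusted p = 0.283) in T47D and -0.30 (limma adjusted p = 0.190) in MDA-MB-231, at a dim level of 4.30 on average. In MDA-MB-231 1 neighbour rose and 1 fell, where 9.59% and 5.98% of all genes did. VKORC1L1 was at -0.15 there (limma adjusted p = 0.529), and its difference between the lines was -0.66 (SE 0.19, limma adjusted p = 0.0384). GUSB was at -0.21 (limma adjusted p = 0.246). Between the control groups 6 of the 9 were lower in MDA-MB-231 and 0 higher, against 24.5% and 22.9% over the brightest probe sets of all genes.

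**Figure D4:**
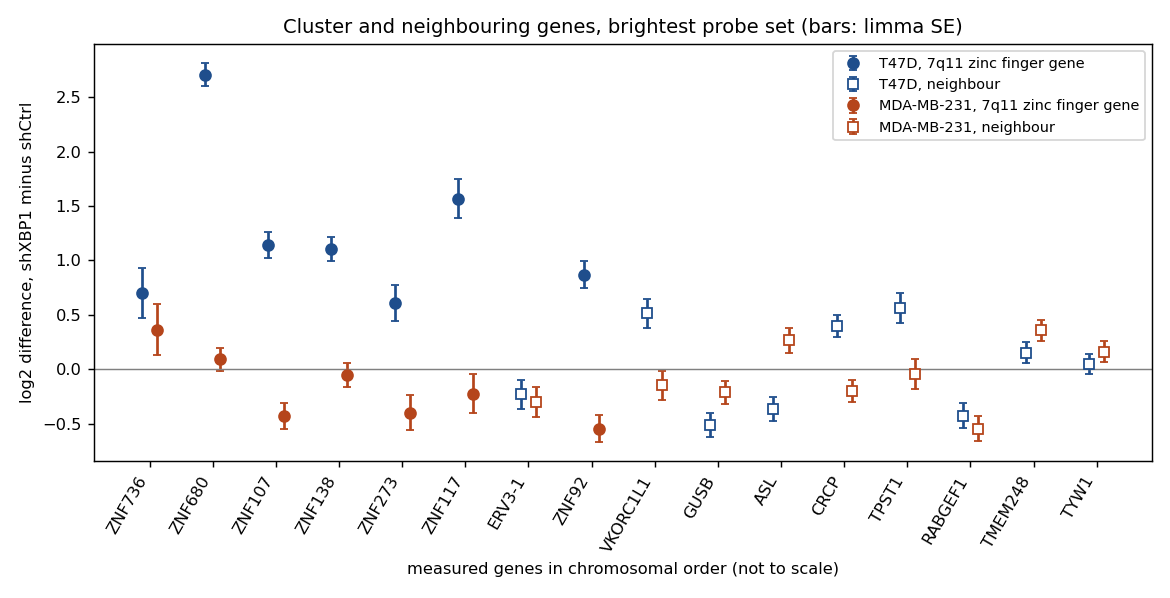
Log2 difference shXBP1 minus shCtrl at the brightest probe set of each measured gene, in chromosomal order and not to scale, for T47D and MDA-MB-231; bars are limma SE. Filled circles are the 7 zinc finger genes and open squares the 9 neighbours, whose T47D differences lie between -0.51 and 0.57.

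A list of 27 genes, holding KRAB co-repressors and other chromatin genes, was measured in full. In T47D 3 rose, 5 fell and 19 did not pass, with a median of -0.03 against -0.02 over all genes. Of all genes, 14.5% rose and 12.3% fell. CBX5, which encodes HP1 alpha, fell by 1.02 (SE 0.11, limma adjusted p = 0.000353), and the DNA methyltransferase gene DNMT3A fell by 0.90 (SE 0.11, limma adjusted p = 0.000772). TRIM24, a bromodomain co-regulator, rose by 0.85 (SE 0.10, limma adjusted p = 0.000487). In MDA-MB-231 5 rose, 6 fell and 16 did not pass, where 9.59% of all genes rose and 5.98% fell. DNMT3B rose by 0.92 (SE 0.13, limma adjusted p = 0.00229), the deacetylase gene HDAC2 by 0.89 (SE 0.12, limma adjusted p = 0.00212), and the histone methyltransferase gene NSD1 fell by 0.86 (SE 0.11, limma adjusted p = 0.00191). CBX5 fell in MDA-MB-231 as well (-0.67, SE 0.11, limma adjusted p = 0.00456). DNMT3B rose in T47D as well (0.72, SE 0.13, limma adjusted p = 0.00422).

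TRIM28 and SETDB1 were singled out after their values were seen, as the core of the KRAB co-repressor machinery. TRIM28 read 10.17 and 10.31 in T47D shCtrl and 9.51 and 9.58 in T47D shXBP1, and it fell by 0.70 (SE 0.10, limma adjusted p = 0.00167). In MDA-MB-231 it read 10.93 and 10.97 with shCtrl and 11.04 and 10.93 with shXBP1, a difference of 0.03 (limma adjusted p = 0.880). Its knockdown difference differed between the lines by 0.73 (SE 0.14, limma adjusted p = 0.00886). SETDB1 had 0.19 in T47D (limma adjusted p = 0.257) and 0.20 in MDA-MB-231 (limma adjusted p = 0.259). The part of any of these genes in the zinc finger levels was not tested.

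Known XBP1 targets of the secretory pathway fell or did not pass in T47D. Of 15 measured, 8 fell and 0 rose in limma (11 lower and 0 higher at an unadjusted p under 0.05), with a median of -0.39. Of all genes, 12.3% fell and 14.5% rose (17.4% and 19% at that unadjusted p). CRELD2 fell by 0.67 (SE 0.11, limma adjusted p = 0.00239) and the chaperone gene HYOU1 by 0.61 (SE 0.11, limma adjusted p = 0.00382). SDF2L1, a co-chaperone of the endoplasmic reticulum, fell by 0.95 (SE 0.10, limma adjusted p = 0.000332) in T47D and by 0.90 (SE 0.10, limma adjusted p = 0.000869) in MDA-MB-231. In MDA-MB-231 2 fell and 2 rose (4 lower and 2 higher at an unadjusted p under 0.05). Of all genes, 5.98% fell and 9.59% rose there (11.6% and 16.5% at that unadjusted p). DNAJB9, another co-chaperone, fell by 0.87 (SE 0.10, limma adjusted p = 0.00111), and the translocon-associated gene SSR1 rose by 2.14 (SE 0.12, limma adjusted p = 7.68e-05). In T47D both fell, DNAJB9 by 0.46 (SE 0.10, limma adjusted p = 0.0123) and SSR1 by 0.51 (SE 0.12, limma adjusted p = 0.015).

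A second zinc finger cluster, on 19p12, is set beside these values. Its list too was chosen with earlier results of these data known, and the genes named have the largest called differences. Their p-values thus describe these arrays and are no independent test. Of its 24 measured genes, at their brightest probe sets, 13 rose and 0 fell in T47D (15 and 0 at an unadjusted p under 0.05), with a median difference of 0.88. Of all genes, 14.5% rose and 12.3% fell (19% and 17.4% at that unadjusted p). ZNF506 rose by 2.62 (SE 0.26, limma adjusted p = 0.000260), ZNF682 by 2.10 (SE 0.24, limma adjusted p = 0.000465) and ZNF681 by 2.02 (SE 0.20, limma adjusted p = 0.000248). In MDA-MB-231 2 rose, ZNF738 by 0.69 (SE 0.14, limma adjusted p = 0.0125) and ZNF93 by 0.50 (SE 0.10, limma adjusted p = 0.0119), and 0 fell (2 and 1 at an unadjusted p under 0.05). Of all genes, 9.59% rose and 5.98% fell there (16.5% and 11.6% at that unadjusted p). Across all 972 probe sets of genes named ZNF and a number, 27% were called higher and 3.6% lower in T47D, and 6.28% and 9.36% in MDA-MB-231. The 7q11 probe sets are part of these 972, with 44.4% and 5.56% in T47D, and whether they differ from the other zinc finger genes was not tested. Of the 54 probe sets of the 19p12 genes, 24 (44.4%) were called higher and 0 lower in T47D. Between the control groups 24 of these 54 were called lower in MDA-MB-231 and 0 higher, with 31.1% and 15% of the 972. For the difference between the lines 19 of the 54 were called lower and 0 higher, with 22.6% and 3.5% of the 972.

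The mean profile of the 7 brightest probe sets, centred on each gene's own mean over the 4 groups, was 0.41 in T47D shCtrl, 1.65 in T47D shXBP1, -0.95 in MDA-MB-231 shCtrl and -1.12 in MDA-MB-231 shXBP1. Among 11608 other genes with a mean at or above the median level, likeness was measured as the root mean square difference of centred log2 group means. The 5 nearest to the mean profile were GADD45G, a growth arrest gene (0.0613), ARFGEF1, an exchange factor of ARF GTPases (0.0741), the glutathione transferase gene GSTA4 (0.0748), CMYA5 (0.106) and TBC1D9 (0.109). Taken singly, the nearest gene to ZNF92 was ATXN1L (0.0375), to ZNF107 PTPN21 (0.0318), to ZNF273 CCDC174 (0.0343), to ZNF736 TSPAN15 (0.0426), to ZNF138 C6orf132 (0.0829) and to ZNF117 SIDT2 (0.110). ZNF680 had no near match, and its nearest gene, the Wnt receptor gene FZD1, stood at 0.238. With 4 group means a near profile is a description of these arrays.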

How the data were processed

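Expression was measured on 8 one-colour Affymetrix arrays from 1 ug of total RNA each, 2 for each of the 4 groups of cell line and hairpin. The deposited table holds log2 expression values of 54675 probe sets, made with RMA in affy 1.30.0 per the submitters' processing notes. RMA subtracts background, normalizes by quantiles and summarises probes on the log2 scale. The deposited log2 values were used as given, running from 2.75 to 15.6 with array medians of 5.87 to 5.91. The set of arrays that RMA was run on together is not stated.

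Probe sets were named through the supplied platform annotation. The 1801 with several symbols were left out, and 41091 were fitted with limma 3.58.1 in R 4.3.3 (lmFit and eBayes, 4 group means, all 8 arrays, 4 residual degrees of freedom and 8.08 after moderation). Tests were two-sided, with Benjamini-Hochberg adjustment over all probe sets and calls at an adjusted p under 0.05. With 2 arrays a side, exact permutation p-values stop at 0.333. The fit was tested on simulated data. A planted log2 change of 0.5 was called in 7.46% of cases in T47D and 5.97% in MDA-MB-231. For a change of 1 the shares were 71.6% and 59.7%, and for a change of 2 they were 95.5% and 98.5%. Far fewer probe sets were changed there than were called on the real arrays, so recovery on the real arrays may differ.

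The members and lists were chosen with earlier results of these data known. The p-values printed for listed genes thus describe these arrays and are no independent test. Values on every array are given for the brightest probe set (highest mean) of each gene and for others of opposite sign with a size of at least 0.5. For lists, up to 3 called genes per knockdown comparison are named, and for neighbours those inside the cluster and the nearest 2 a side. Upstream sequences came from RefSeq and were aligned locally with Biopython 1.88. Alternatives were single arrays left out, other probe set choices, repeated quantile normalization, the replicate block and other limma settings.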

Additional observations from a re-analysis of the deposited data

Results flagged for a closer look

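The knockdown difference pointed in opposite directions in the lines for 6 probe sets of the cluster, with every shXBP1 array above every shCtrl array in T47D and below in MDA-MB-231. The MDA-MB-231 minus T47D values were -1.42 for ZNF92 (235170_at), -1.57 for ZNF107 (243312_at), -1.79 and -1.09 for ZNF117 (235408_x_at and 207605_x_at), and -1.01 and -1.49 for ZNF273 (243661_at and 215239_x_at). Within the limma fit this difference between the lines was called for 5 of these 6, all but 207605_x_at. In MDA-MB-231 itself, of the 6 only 235170_at and 243312_at were called lower, and 235408_x_at had -0.23 (SE 0.18) there. Both ZNF117 probe sets are dim, with 6 (235408_x_at) and 8 (207605_x_at) of the 8 arrays below 6.34. As the genes were chosen on these arrays, the calls are a description and no p-value is given. At 2 arrays a group, 30.3% and 31.1% of all probe sets separated upwards and downwards in T47D, and 27% and 26.3% in MDA-MB-231. The share of all probe sets that lay above in T47D and below in MDA-MB-231 was not counted, so whether 6 is many cannot be said.

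Among the 27 listed co-repressor and chromatin genes, the difference between the lines passed limma's interaction test for 5 in each direction. Over the brightest probe sets of all genes, 11.7% were higher and 10.8% lower by this test. Of the 6 listed genes named for their knockdown differences, 4 were among the 10 that passed. They were HDAC2 (1.05, adjusted p = 0.00362), DNMT3A (1.10, adjusted p = 0.00224), TRIM24 (-0.78, adjusted p = 0.00529) and NSD1 (-0.82, adjusted p = 0.00826). The largest of the 10 by size was EHMT1, a histone methyltransferase gene named after its value was seen (-1.35, limma adjusted p = 0.00108), with 0.77 in T47D and -0.58 in MDA-MB-231. Among the 9 measured neighbours it passed for VKORC1L1, the gene next to ZNF92 (-0.66, limma adjusted p = 0.0384), for CRCP (-0.60, limma adjusted p = 0.0205) and, in the opposite direction, for ASL (0.63, limma adjusted p = 0.0239). CRCP and ASL were named after their values were seen.

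Outside the probe sets used, 1555368_x_at, annotated to both ZNF479 and ZNF273, read 4.91 and 4.90 in T47D shCtrl and 5.36 and 5.40 in T47D shXBP1, a difference of 0.47. The other 2 such probe sets did not go with it: 1554996_at read 3.55 and 3.54 in T47D shCtrl and 3.15 and 3.22 in T47D shXBP1, a difference of -0.36, and 1555367_at had a difference of 0.01.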

How the results depend on the processing

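Over the 18 probe sets, the count called higher in T47D stayed within 7 to 9 when single arrays were left out. With 1 probe set per gene the T47D count called lower went from 1 to 0, the medians from 0.61 to 1.11 (T47D), from -0.83 to -1.42 (difference between the lines) and from -0.67 to -0.97 (control groups), and the control groups' lower calls from 10 to 6, since fewer probe sets were counted. With dim probe sets left out (7 remain) the medians were 0.87, -1.16 and -1.23, and the difference between the lines had 5 lower and 1 higher in place of 8 and 0. The mean over probe sets gave medians of 0.80 in T47D and -0.96 between controls. It left 0 lower in T47D, 1 lower in MDA-MB-231 and 6 lower between controls. It turned ZNF107 (243312_at) in MDA-MB-231 from -0.43 to 0.11. The same mean took ZNF736 (235027_at) in T47D, where it had no call, from 0.70 to -0.07. The ZNF736 difference between the lines, also not called, went from -0.34 to 0.24. Testing all probe sets of the table, only the arrays compared or the replicate block left 0 lower in T47D, and only the arrays compared left 0 of 2 lower in MDA-MB-231. Trend and robust fitting gave 1 lower in MDA-MB-231 and 1 higher in the difference between the lines. Leaving out single arrays gave 0 to 1 lower in T47D, 0 to 2 lower and 0 to 1 higher in MDA-MB-231, and 0 to 1 higher in the difference between the lines. The ZNF107 fall in MDA-MB-231 (243312_at) was lost without any single array of the 8. For changes not explained by fewer probe sets or arrays, the cause was not tested. Over all probe sets, T47D calls (5429 higher, 4540 lower) became 3425 and 2729 without T47D shXBP1 replicate 1 and 3418 and 2771 without replicate 2. With 1 probe set per gene (19775 tested) the calls were 3071 and 2675 in T47D, 2090 and 1320 in MDA-MB-231, 2579 and 2326 for the difference between the lines and 4692 and 4991 between controls (9364 and 8889 over all probe sets). The mean over probe sets gave 2802 and 2611, 1808 and 1459, 2433 and 2318, and 4780 and 4766 in the same order. Calls in MDA-MB-231 (3205 and 3299) became 1885 and 1943 with only the arrays compared, 2020 and 1893 without MDA-MB-231 shCtrl replicate 1 and 2121 and 1907 without MDA-MB-231 shXBP1 replicate 1. Calls for the difference between the lines (3973 and 4716) became 2477 and 3191, and 2524 and 3221, without T47D shXBP1 replicate 1 or 2. Same-numbered arrays did not deviate together (correlations of -0.057 to 0.026 over 6 pairs of groups), so the replicate numbers were not taken as pairs, and the replicate block gave 10 called higher in T47D in place of 8. Of the differences of single probe sets under alternatives, 546 were identical because the setting leaves the difference as it is. Of the other 456, 377 moved by less than the spread between replicates, 78 by more and 1 turned from called lower to above 0. The mean level of 11 of the 18 probe sets lay below the median probe set level, and recovery by level was not tested.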
